A study of Mus musculus with 42 samples.

Results

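The genes described here encode Src family kinases and the proteins that signal with them at the sodium pump. They were chosen by name from what is known of that pathway, and all 10 were found in the count table, which lists 54232 genes. The 10 members are the Src family kinases Src (ENSMUSG00000027646), Fyn (ENSMUSG00000019843), Yes1 (ENSMUSG00000014932) and Lyn (ENSMUSG00000042228), the kinase Csk (ENSMUSG00000032312), the focal adhesion kinases Ptk2 (ENSMUSG00000022607) and Ptk2b (ENSMUSG00000059456), the receptor Egfr (ENSMUSG00000020122), the coat protein Cav1 (ENSMUSG00000007655) and the GTPase Hras (ENSMUSG00000025499). They were measured by RNA sequencing of 42 mouse brain libraries, of which 22 carry the label hippocampus and 20 the label cerebellum. Under each label there were 4 groups: western diet with NaKtide, control diet with NaKtide, western diet and control diet. The western diet held 42% fat and the control diet 11% fat, and either was fed for 12 weeks. NaKtide came from a transgene switched on by 300 mg doxycycline per kg of feed. Whether the other mice carried the transgene or were given doxycycline is not in the labels, so effects of the peptide, the transgene and the drug cannot be told apart. The labels give neither the promoter of the transgene nor the age or strain of the mice. The cerebellum label held 5 libraries in every group, and the hippocampus label held 6 of western diet with NaKtide, 5 of control diet with NaKtide, 5 of western diet and 6 of control diet. Nothing in the labels ties a library to an animal of its own, so every p-value measures the spread between these libraries, some of which may be technical.

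The sodium pump moves sodium out of cells and potassium in, and its catalytic subunit also binds Src and holds it in check. When a cardiotonic steroid or oxidants act on the pump, Src is released, phosphorylates Egfr, and the signal passes through adaptor proteins to Ras and the MAP kinases; caveolin gathers the pump, Src and Egfr in caveolae. NaKtide is a peptide copied from the pump that binds Src and keeps it inactive. It acts on the kinase protein, so the messenger RNA levels given here are not a readout of kinase activity. In brain, Src and Fyn phosphorylate NMDA receptors at synapses, Csk keeps Src family kinases off by phosphorylating their tail, and Ptk2b, also called Pyk2, is a calcium-responsive kinase of forebrain neurons.

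Library totals ran from 4669374 to 9521002 counts, and the lowest count of any member in any library was 13, for Yes1. Markers did not match the cerebellum label in most libraries: Gabra6, which marks granule cells of the cerebellum, did not reach 1 CPM (counts scaled to the library total) in 14 of the 20 cerebellum libraries and reached 10 CPM in 3 of those and in 1 of the 22 hippocampus libraries. Markers were uneven under the hippocampus label too, here as sums in CPM with TMM factors. Markers of striatal neurons ran from 161 CPM in hippocampus western 4 to 4885 CPM in hippocampus western NaKtide 6. Those of hippocampal neurons ran from 102 CPM in hippocampus western NaKtide 3 to 837 CPM in hippocampus western 1. Cerebellum control 2 also held 102 CPM of the latter. The groups are therefore called by their labels, and neither label is taken to show which tissue a library holds. In hippocampus control 5 and 6 the counts lay closest of all pairs within a group, with a mean chi-square per gene of 2.32 against 7.11 for the next pair, and 10.9% of their genes differed at an unadjusted p under 0.05, against 26.6% for that next pair. Their difference is above counting noise, but that does not show that they come from separate animals. They were kept as 2 libraries, and every comparison that names the hippocampus control group was also computed with the pair summed to 1. Other comparisons fitted together with that group were not, among them NaKtide on western diet under the hippocampus label. Their estimate of the spread includes these 2 libraries. Those 2, together with hippocampus western NaKtide 6 and cerebellum western NaKtide 5, carried 9.90 to 162 CPM of Xist, the RNA of the inactive X chromosome, against at most 0.599 CPM in the other libraries. Results were also computed without these 4 libraries.

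Compared per transcript length, Hras and Ptk2b were the most abundant members. Over the 42 libraries Hras averaged 56.7 ± 15.2 FPKM and Ptk2b 56.4 ± 30.1 FPKM (SD). FPKM is the fragment count scaled to transcript length and library size, here as the authors deposited it. Fyn followed with 21.6 ± 3.06 FPKM and Src with 21.0 ± 4.40 FPKM, and each of these pairs of neighbours differed by less than its own SD. The inhibitory kinase Csk averaged 10.03 ± 3.08 FPKM and Ptk2, the focal adhesion kinase, 5.96 ± 1.93 FPKM. The 4 least abundant members were Cav1 at 3.02 ± 0.796 FPKM, Lyn at 1.65 ± 0.579 FPKM, Egfr at 0.696 ± 0.206 FPKM and Yes1 at 0.685 ± 0.225 FPKM. Egfr and Yes1 could not be separated in this order. Thus of the 4 Src family kinases, 2 were transcribed at about the same level and the other 2 far below them, with the Yes1 mean under the lowest Lyn library, at 0.825 FPKM.

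**Figure D1:**
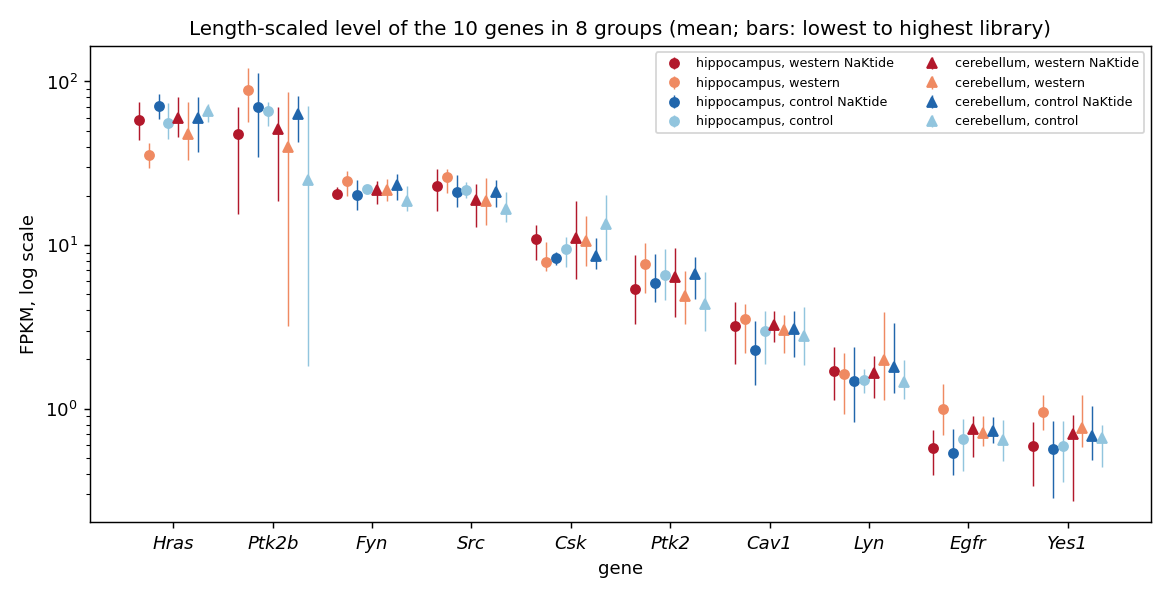
Authors' FPKM of the 10 members (log axis) in the 8 groups; points are group means and bars run from the lowest to the highest library. Hras and Ptk2b lie highest and Egfr and Yes1 lowest in level, and the longest bars are those of Ptk2b in cerebellum control, from 1.83 to 70.8 FPKM, and in cerebellum western, from 3.20 to 86.1 FPKM.

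The members differed in how much they varied between libraries. In CPM with TMM factors, the unit of all levels from here on, Fyn varied least, between 69.3 and 124 CPM with a coefficient of variation of 14.2%. Src lay between 56.8 and 130.2 CPM, and Hras between 109 and 314 CPM. Ptk2b varied most: its lowest library was cerebellum control 2 with 13.4 CPM and its highest hippocampus western 4 with 892 CPM, a 66.5-fold range with a coefficient of variation of 53.2%. The remaining 6 members had coefficients of variation between 26.3% for Cav1 and 35.4% for Lyn.

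**Figure D2:**
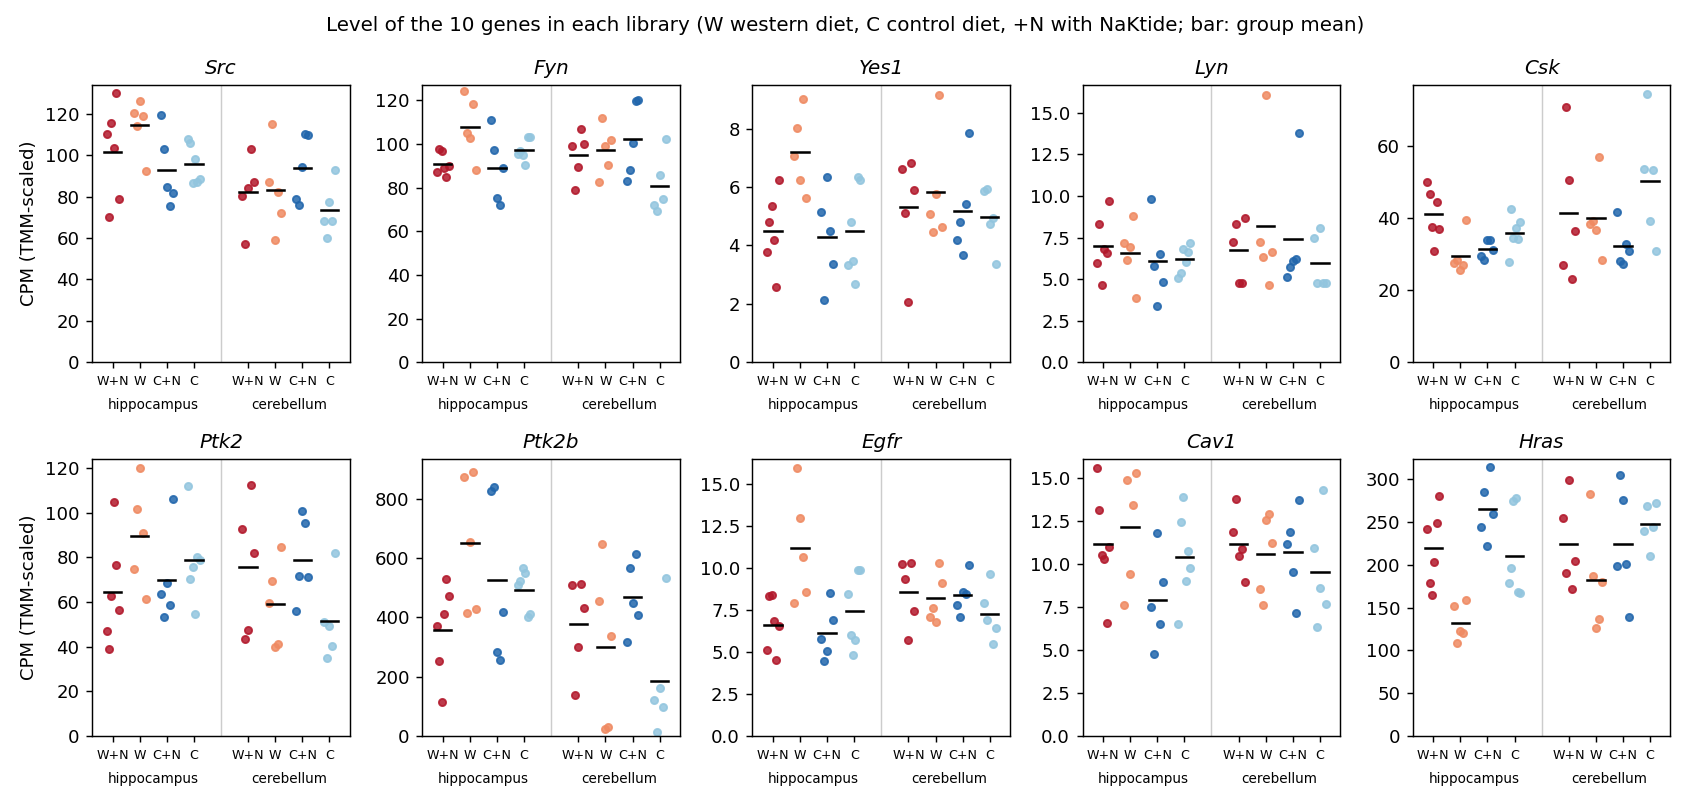
CPM with TMM factors of each member in every library (points) with the group mean (bars), for the 8 groups. The 6 hippocampus western NaKtide points of Hras, from 165 to 281 CPM, all sit above the 5 hippocampus western points, from 109 to 159 CPM.

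The comparison in which members changed was NaKtide on western diet under the hippocampus label. It sets libraries with NaKtide against those without it, all on the fat-rich diet. Of the 10 members, 4 passed the threshold, an adjusted p under 0.05 by edgeR's quasi-likelihood test over all 16442 genes tested: Hras and Csk rose with NaKtide, and Egfr and Ptk2b fell. That share has to be read against the background of this comparison, in which 33.7% of all genes tested were called, 17.4% higher and 16.3% lower. The median log2 fold change was -0.23 over the 10 members and 0.05 over all genes tested. All 10 members passed the filter on low counts in every fit.

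Hras, the GTPase that passes signals from receptor tyrosine kinases to the MAP kinases, changed with the smallest p of the members. Its lowest, median and highest levels in the 6 western NaKtide libraries were 165, 222 and 281 CPM, against 152, 109, 122, 120.4 and 159 CPM in the 5 western libraries. Each NaKtide library lay above every western library, so the groups did not overlap. How many of all genes separated as fully is not given here, and 33.7% of genes were called in this comparison. Hras rose by 0.72 on the log2 scale (SE 0.171, 1.65-fold, edgeR adjusted p = 0.00521). Its gene lies at chr7:141189105-141194005 on the minus strand (GRCm38).

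Csk, which switches Src family kinases off, had 30.9, 41.0 and 50.02 CPM as the lowest, median and highest of the 6 western NaKtide libraries, against 27.5, 28.3, 25.5, 27.1 and 39.5 CPM in the 5 western libraries. The groups overlapped through 1 library: western 5, at 39.5 CPM, exceeded 3 of the 6 NaKtide libraries. Csk rose by 0.47 on the log2 scale (SE 0.143, 1.38-fold, edgeR adjusted p = 0.0170). Without western 3, or without western NaKtide 1, Csk was no longer called (adjusted p = 0.05225 and 0.0614). The Csk gene lies at chr9:57626646-57653631 on the minus strand.

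Egfr, the receptor that Src phosphorylates in pump signalling, had a lowest, median and highest level of 4.52, 6.69 and 8.37 CPM in the 6 western NaKtide libraries, against 7.88, 15.9, 12.96, 10.6 and 8.54 CPM in the 5 western libraries. Here 4 of the 6 NaKtide libraries lay below every western library. Egfr fell by 0.78 on the log2 scale (SE 0.239, 0.583-fold, edgeR adjusted p = 0.0173). The highest western library weighed on the call, since without western 2 the adjusted p was 0.0673. Egfr counts were low, from 24 to 110 per library, and its gene lies at chr11:16752203-16918158 on the plus strand.

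Ptk2b, the calcium-responsive kinase, had 115, 391 and 529.5 CPM as lowest, median and highest of the 6 western NaKtide libraries, against 875, 416, 654, 892 and 428 CPM in the 5 western libraries. Of the 5 western libraries 2 lay at 416 and 428 CPM and 3 at 654 CPM or more, and 4 of the 6 NaKtide libraries lay below every western library. Ptk2b fell by 0.88 on the log2 scale (SE 0.339, 0.544-fold, edgeR adjusted p = 0.0493). The call stood at the threshold and was lost without western 1, 3 or 4 and without western NaKtide 1, 2, 3 or 4, with adjusted p between 0.0579 and 0.135 in those 7 fits. The gene lies at chr14:66153257-66281052 on the minus strand.

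The Src family kinases themselves were not called in that comparison. Yes1 came closest: its lowest, median and highest levels were 2.56, 4.49 and 6.24 CPM in the 6 western NaKtide libraries, against 7.05, 8.03, 6.25, 9.03 and 5.64 CPM in the 5 western libraries, a log2 difference of -0.70 (SE 0.270, adjusted p = 0.0505). All but 1 of the NaKtide libraries lay below every western library, and Yes1 was called when western 5, western NaKtide 3 or western NaKtide 6 was left out (adjusted p 0.0286 to 0.0431). Fyn had 84.9, 89.3 and 97.8 CPM as lowest, median and highest with NaKtide, against 124, 105, 103, 118 and 88.3 CPM in the western libraries (log2 difference -0.26, SE 0.112, adjusted p = 0.0774). It was called without western 5 (0.0270) or western NaKtide 3 (0.0484). Src averaged 101 ± 22.8 CPM with NaKtide (SD, n = 6) and 114 ± 13.04 CPM on western diet alone (n = 5), a log2 difference of -0.19 with an SE of 0.148. Lyn, a Src family kinase best known from blood cells and microglia, averaged 7.01 ± 1.78 CPM with NaKtide and 6.59 ± 1.80 CPM on western diet alone.

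Of the other members, Ptk2, the focal adhesion kinase, had 38.9, 59.4 and 105 CPM as lowest, median and highest with NaKtide, against 74.7, 102, 120.0, 90.8 and 61.2 CPM on western diet alone (log2 difference -0.50, SE 0.231, adjusted p = 0.0940). The ranges overlapped, with western NaKtide 4 at 105 CPM above 4 of the 5 western libraries, and Ptk2 was called without that library (adjusted p = 0.0227) or without western 5 (0.0438). Cav1, the coat protein of caveolae, averaged 11.2 ± 3.02 CPM with NaKtide and 12.1 ± 3.44 CPM on western diet alone, a log2 difference of -0.13 with an SE of 0.248.

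**Figure D3:**
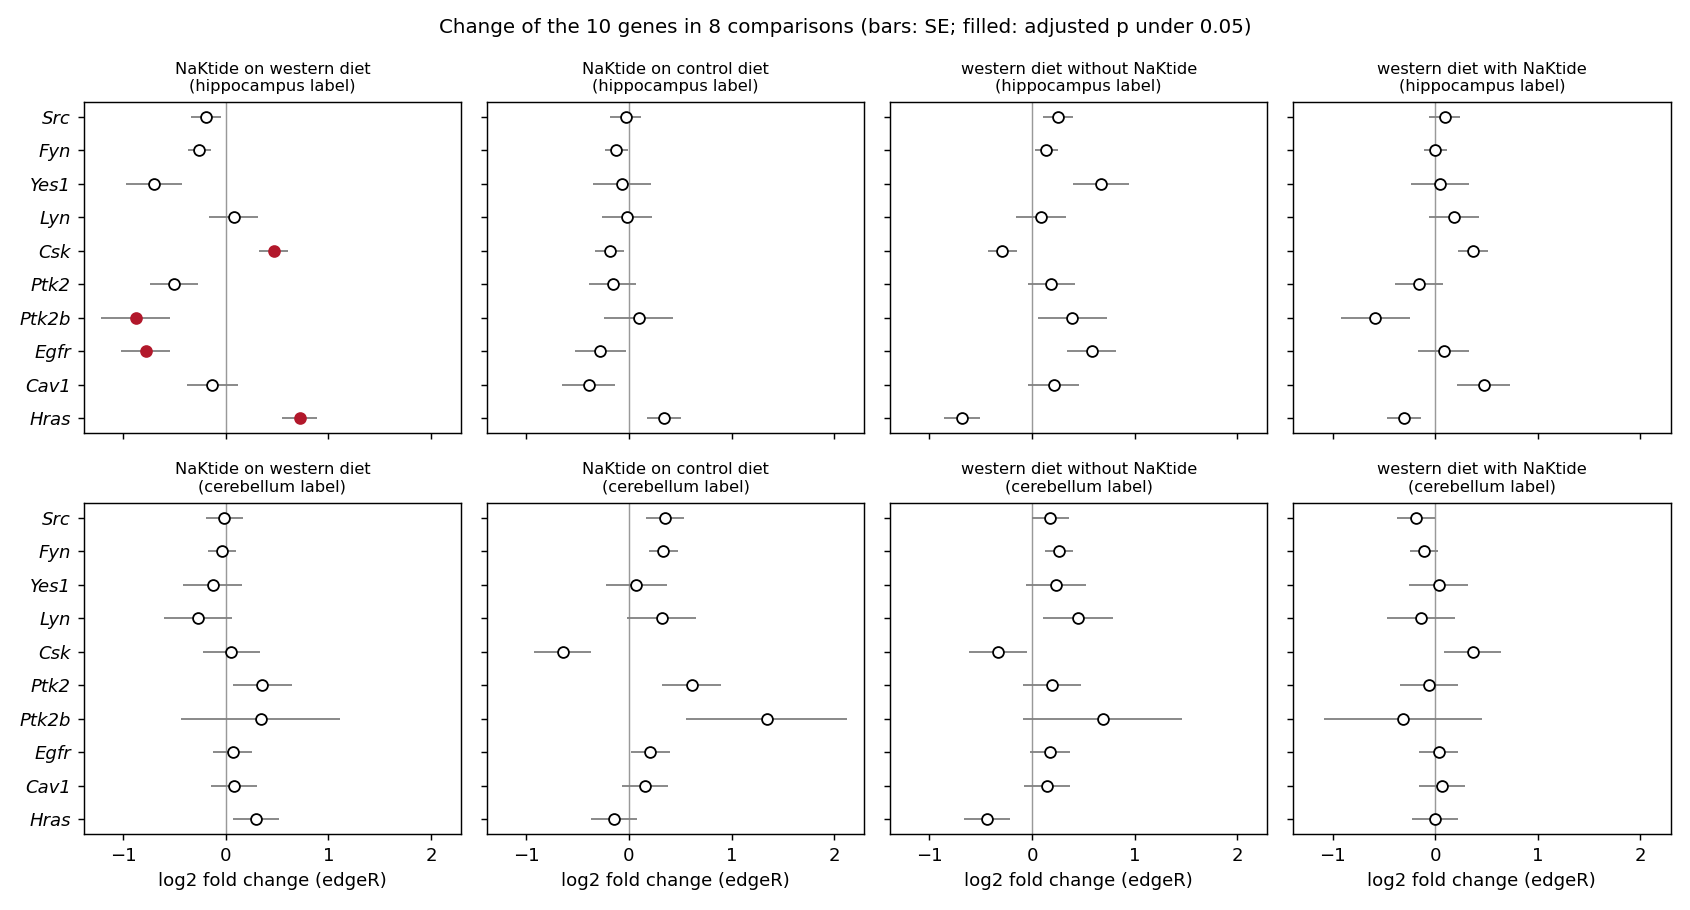
Log2 fold change of each member with its SE by edgeR for NaKtide and for western diet under both region labels, first-named group over second; filled points have an adjusted p under 0.05 over all genes tested. The 4 filled points all belong to NaKtide on western diet under the hippocampus label: Hras at 0.72, Csk at 0.47, Egfr at -0.78 and Ptk2b at -0.88.

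The sequence before the start is shown for the 3 members with the smallest p in this comparison: Hras and Csk, which rose, and Egfr, which fell. For 7 members RefSeq starts were at hand (GRCm38.p6), and those of Lyn, Ptk2 and Ptk2b are named only. Each line holds 250 bases, 5′ to 3′ on the strand of the gene, and capitals mark the GC box GGGCGG or its reverse complement CCGCCC.
Hras, chr7:141194005-141194254, minus strand: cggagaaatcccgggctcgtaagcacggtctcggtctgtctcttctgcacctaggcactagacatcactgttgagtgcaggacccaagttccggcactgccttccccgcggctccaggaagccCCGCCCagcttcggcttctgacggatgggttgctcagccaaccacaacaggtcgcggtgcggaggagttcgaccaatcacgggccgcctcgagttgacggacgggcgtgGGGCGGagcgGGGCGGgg
Csk, chr9:57653632-57653881, minus strand: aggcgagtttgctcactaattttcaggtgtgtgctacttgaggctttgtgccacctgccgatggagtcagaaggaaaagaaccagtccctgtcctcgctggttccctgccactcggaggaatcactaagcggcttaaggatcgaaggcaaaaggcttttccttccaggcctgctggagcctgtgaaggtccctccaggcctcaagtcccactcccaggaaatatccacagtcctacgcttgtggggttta
Egfr, chr11:16751953-16752202, plus strand: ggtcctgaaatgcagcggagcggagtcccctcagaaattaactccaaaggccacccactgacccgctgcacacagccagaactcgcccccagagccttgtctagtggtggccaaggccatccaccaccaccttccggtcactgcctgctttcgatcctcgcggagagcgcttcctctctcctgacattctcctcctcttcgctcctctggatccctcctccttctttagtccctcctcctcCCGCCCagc
The Hras window held 3 GC boxes and 1 CCAAT motif, the Csk window none of either, and the Egfr window 1 GC box and no CCAAT. None of the 3 held TATAAA on either strand. Over 32851 RefSeq windows of this length, 32.7% held GGGCGG, 33.8% CCAAT and 12.4% TATAAA on one strand or the other. The share of G and C was 65.6% for Hras, 54.0% for Csk and 60.8% for Egfr, against a median of 52.4% over all windows. RefSeq gives Csk a second start, whose window (chr9:57645654-57645903) is not printed; it held 64.0% G and C and none of the 3 motifs. A match says only that these letters occur in the window.

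Other transcripts of these libraries moved in the same comparison, and the counts below are to be read against the 17.4% of all genes that were higher and the 16.3% that were lower. Of 12 microglia markers 6 were higher with NaKtide and none lower, and their summed level was 526.3 to 725 CPM in the western NaKtide libraries and 338 to 531 CPM in the western libraries. Of 9 markers of hippocampal neurons 5 were lower and none higher, with 102 to 389.9 CPM against 393 to 837 CPM in sum. Of 8 markers of striatal neurons 5 were higher and none lower (238 to 4885 CPM with NaKtide and 161 to 508 CPM without), of 5 red blood cell genes 4 were higher (736 to 3454 CPM and 239.6 to 1243 CPM), and of 8 astrocyte markers 1 was higher and 4 lower (1838 to 3046 CPM and 2197 to 3886 CPM). Of 7 tested cerebellar markers 4 were lower and none higher, with 37.6 to 118.5 CPM against 47.85 to 465 CPM in sum for the list of 9. Of 10 endothelial markers 1 was lower and none higher (154 to 320.1 CPM and 192 to 251 CPM). Of 9 oligodendrocyte markers 1 was higher and none lower, with 2249 to 22070 CPM in sum with NaKtide and 3523 to 10290 CPM without, medians of 11320 and 4876 CPM. The lists of choroid plexus (26.3 to 5082 CPM with NaKtide and 27.5 to 2559 CPM without) and thalamus (62.0 to 1009 CPM and 66.7 to 401 CPM) held no called gene, and that of pituitary and hypothalamus 1 higher gene of 6 tested (4.75 to 161.5 CPM and 1.77 to 33.7 CPM for the list of 8). Mitochondrial protein-coding genes took 5.597% to 15.6% of counts in the western NaKtide libraries, with western NaKtide 1 at 11.1% and western NaKtide 3 at 15.6%, and 4.85% to 7.29% in the western libraries. No marker of these lists was at 0 throughout a group, and the part of the markers and the mitochondrial share in the members' differences was not tested. In such bulk libraries, fewer cells of a type and less RNA per cell cannot be told apart.

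The fold changes also ran with transcript length. Over the 16420 genes with a length, the median log2 fold change was 0.48, 0.14, -0.07 and -0.28 in 4 equal sets of genes from the shortest to the longest exons. Hras (3733 bp of exon) and Csk (3737 bp) are among the shorter members, while Ptk2b (7398 bp), Yes1 (7508 bp), Egfr (11326 bp) and Ptk2 (11803 bp) are the longest. When the trend of each library with exon length and GC content was taken out, 2 members were called, Hras (0.53, adjusted p = 0.0216) and Src (-0.43, adjusted p = 0.0322), beside 21.6% of all genes. Egfr then stood at -0.26 (adjusted p = 0.331), Csk at 0.20 (0.287), Yes1 at -0.17 (0.621) and Ptk2b at -0.87 (0.0685). With the leading component of the cerebellum libraries as a covariate only Hras was called (0.66, adjusted p = 0.0395), beside 7.92% of genes. Egfr was then -0.69 (0.119), Ptk2b -0.52 (0.299) and Csk 0.28 (0.181). Hras was the one member called in this comparison under all 9 other settings and in all 11 fits without 1 library, between 0.64 and 0.79 on the log2 scale in the latter fits. Other comparisons described below had a length trend too. From the shortest to the longest set, medians ran from -0.33 to 0.21 for the diet without NaKtide under the hippocampus label. They ran from -0.34 to 0.24 for NaKtide on control diet under the cerebellum label. For the label difference in NaKtide on control diet they ran from 0.62 to -0.42, and for NaKtide on western diet under the cerebellum label from 0.08 to -0.04.

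Other fits called between 3 and 6 members. DESeq2 called 6, adding Fyn (adjusted p = 0.0422) and Yes1 (0.0357) to the 4 above, beside 36.8% of genes. Without the 4 libraries marked by Xist, Yes1 joined them (adjusted p = 0.0212), beside 33.8% of genes. With no filter on low counts 3 were called, Csk, Egfr and Hras, beside 14.0% of genes, and with the 2 compared groups alone Yes1, Egfr and Hras, beside 29.6%. Leaving out 1 library gave 2 calls, Hras and Egfr, without western 3 (24.4% of genes) or without western NaKtide 1 (26.8%), and 7 calls without western 5 (36.7%), when Fyn, Yes1 and Ptk2 were also called.

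**Figure D4:**
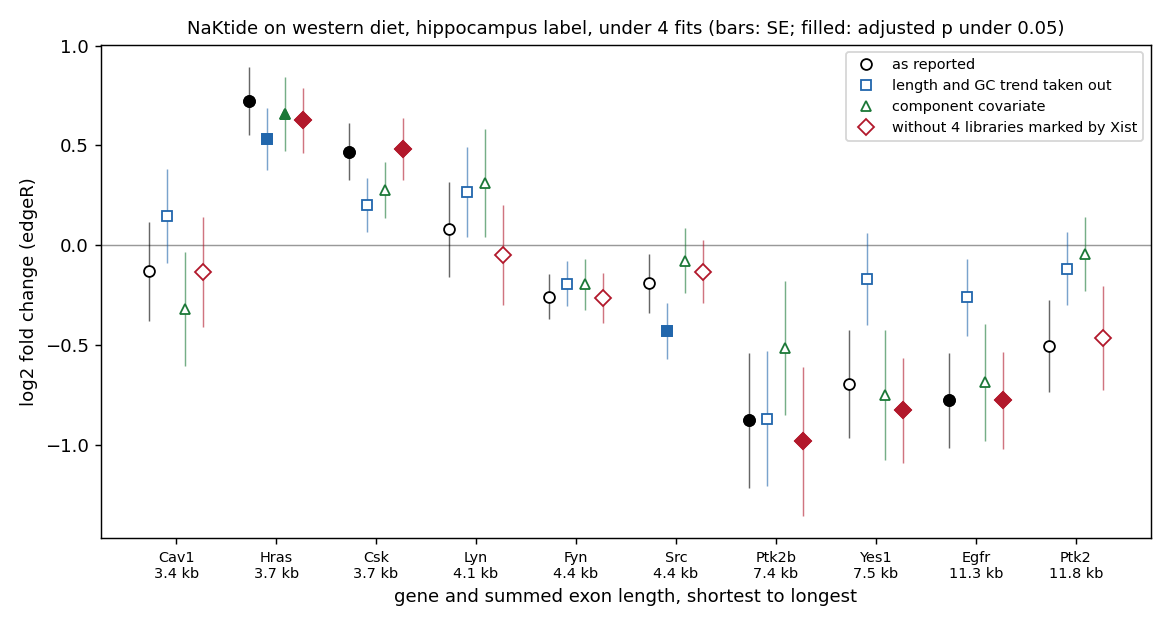
Log2 fold change with SE of the 10 members for NaKtide on western diet, hippocampus label, in 4 fits, members ordered by exon length. Hras stays between 0.53 and 0.72 in the 4 fits, while Egfr is -0.78 by edgeR and -0.26 once the trends with length and GC are removed.

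Other genes of the pathway were described from lists of its known parts. Among 19 genes of the Ras and MAP kinase pathway other than Hras, 1 rose and 7 fell with NaKtide on western diet under the hippocampus label, with a median log2 fold change of -0.49. As for all lists in this comparison, 17.4% of all genes rose and 16.3% fell, with a median of 0.05. Rasa1, a Ras GTPase-activating protein, averaged 13.5 ± 2.92 CPM with NaKtide and 34.7 ± 9.54 CPM without (log2 -1.38, adjusted p = 0.00143). Sos1, the exchange factor that loads Ras with GTP, averaged 19.4 ± 1.81 CPM and 37.5 ± 5.98 CPM (-0.96, 0.00162), and the kinase Braf 37.0 ± 9.04 CPM and 75.9 ± 20.8 CPM (-1.06, 0.00343). Rasa1 has 7320 bp of exon, Sos1 10594 bp and Braf 13862 bp. Some genes of the lists below that also fell are shorter, among them Crk (4730 bp) and Atp1b1 (3081 bp). Named after their values were seen are Map2k2, a MAP kinase kinase and the one gene of the list that rose (0.76, adjusted p = 0.00343), and Nras, a close relative of Hras, which stood at 0.25 (0.254).

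Of 15 focal adhesion partners and Src substrates 2 rose and 8 fell (median -0.45), beside the 17.4% and 16.3% of all genes. The adaptors Crk and Crkl, which bind substrates phosphorylated by Src, were among those that fell: Crk averaged 48.2 ± 7.70 CPM with NaKtide and 95.5 ± 17.6 CPM without (-1.004, adjusted p = 0.00258), and Crkl 27.0 ± 4.61 CPM and 44.2 ± 6.12 CPM (-0.72, 0.00483). Arhgap35, a GTPase-activating protein, fell by 0.62 (0.00319). The 2 that rose, named after their values were seen, were Itga5 (1.69, 0.0203) and Tln1 (0.41, 0.0209), an integrin and the talin that binds integrins. Of 10 regulators of Src family kinases 3 rose and 4 fell; Ptpn6 (0.76) as a further gene that rose, and Cbl (-0.50), Ptpra (-0.48) and Pag1 (-0.84) as genes that fell, are named after their values were seen. Matk, a kinase related to Csk, rose by 0.78 (0.0135) and Ptpn5, a neuronal phosphatase also called STEP, by 0.87 (0.0163).

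Egfr's relatives gave 2 genes that fell and none that rose among the 8 tested of 12: the neuregulin receptor Erbb4 (-1.41, adjusted p = 0.00801) and the neuregulin Nrg3 (-1.26, 0.00808). Of 6 tested caveolar genes, Cav2, the partner of Cav1, fell by 1.30 (0.00592) and Cavin3 rose by 0.76 (0.00814). Of 9 pump and pump-signalling genes 1 fell, the beta subunit gene Atp1b1, which averaged 573 ± 50.7 CPM with NaKtide and 1104 ± 87.4 CPM without (-0.96, 0.00244).

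The western diet itself, in mice without NaKtide under the hippocampus label, gave no called member by edgeR. Of all genes 0.0% were called, and 3 members had an unadjusted p under 0.05. Hras had 152, 109, 122, 120.4 and 159 CPM on western diet, against 167, 188 and 278 CPM as the lowest, median and highest of the 6 control libraries. Every western library lay below every control library, and how many of all genes separated as fully is not given here. The log2 difference of Hras was -0.68 (SE 0.171, 0.623-fold), with an edgeR adjusted p of 0.0811. DESeq2 called Hras alone of the members (adjusted p = 0.0145), beside 5.04% of genes. edgeR called it when control 6 (0.0420) or western 5 (0.0464) was left out. Without the 4 libraries marked by Xist, edgeR called Hras (-0.80, 0.0133), Yes1 (1.02, 0.0282) and Egfr (0.86, 0.0378), beside 13.4% of genes.

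For Yes1 the mean was 7.20 ± 1.36 CPM in the 5 western libraries and 4.48 ± 1.57 CPM in the 6 control libraries (log2 0.67, SE 0.270, adjusted p = 0.143). Egfr averaged 11.2 ± 3.31 CPM in the western and 7.46 ± 2.24 CPM in the control libraries (0.58, SE 0.238, adjusted p = 0.148). Csk averaged 29.6 ± 5.63 CPM and 35.8 ± 5.02 CPM (-0.29, SE 0.143, adjusted p = 0.216). This comparison and that of NaKtide on western diet share the 5 western libraries. These are the second group there and the first here, so opposite signs can arise from their spread alone. Such signs therefore do not show that NaKtide reversed the diet. The log2 values of the 2 comparisons, NaKtide on western diet first and the diet second, were 0.72 and -0.68 for Hras, 0.47 and -0.29 for Csk, -0.78 and 0.58 for Egfr, and -0.70 and 0.67 for Yes1. For Ptk2b they were -0.88 and 0.39, for Ptk2 -0.50 and 0.19, and for Fyn -0.26 and 0.14. Src had -0.19 and 0.25, Cav1 -0.13 and 0.21, and Lyn, with the same sign in both, 0.08 and 0.09.

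With NaKtide, the diet again gave no called member and 0.0% of genes under the hippocampus label. Csk, at 41.1 ± 7.13 CPM on western diet with NaKtide (n = 6) and 31.3 ± 2.54 CPM on control diet with NaKtide (n = 5), was the 1 member with an unadjusted p under 0.05 (log2 0.37, adjusted p = 0.421). Its interaction of diet and NaKtide was 0.65 (SE 0.203, adjusted p = 0.174), again the 1 member with an unadjusted p under 0.05, beside 0.0% of genes called. DESeq2 called no member in either. On control diet, NaKtide gave neither a called member nor a called gene (0.0%) by edgeR; no member had an unadjusted p under 0.05, and DESeq2 called none. Hras averaged 265 ± 35.6 CPM with NaKtide and 210 ± 51.9 CPM without, a log2 difference of 0.34 (SE 0.168, adjusted p = 0.313).

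Under the cerebellum label no member was called in any of the 5 comparisons by edgeR or DESeq2. For NaKtide on western diet 0.0% of genes were called and no member had an unadjusted p under 0.05: Hras averaged 224 ± 52.0 CPM with NaKtide and 183 ± 62.1 CPM without (log2 0.29, SE 0.224), and Egfr 8.59 ± 1.98 CPM and 8.19 ± 1.47 CPM (0.07, SE 0.191). The diet without NaKtide (0.00612% of genes called), the diet with NaKtide (0.0%) and the interaction (0.00612%) gave no member with an unadjusted p under 0.05 by edgeR either.

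For NaKtide on control diet under the cerebellum label 1 library weighed on the members. By edgeR 0.00612% of genes were called and 3 members had an unadjusted p under 0.05, and DESeq2 called 8.32% of genes and no member. Ptk2b had 318, 567, 448, 613 and 407 CPM with NaKtide, against 122, 13.4, 161, 98.7 and 532 CPM without. Cerebellum control 5 stood apart, with 532 CPM among the NaKtide libraries, and the other 4 control libraries were all below every NaKtide library. The log2 difference was 1.34 (SE 0.784, adjusted p = 0.248), and 2.25 (adjusted p = 0.0453) without cerebellum control 5. Without that library Fyn (0.44, adjusted p = 0.0301), Ptk2 (0.85, 0.0382) and Csk (-0.78, 0.0468) were called too, beside 26.5% of genes.

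That library also stood apart from its group in other transcripts. Its summed oligodendrocyte markers were 4590 CPM, against 12790 to 20650 CPM in the other 4 control libraries and 2086 to 9000 CPM with NaKtide. Its hippocampal neuron markers were 346.5 CPM, against 102 to 293 CPM in the other 4 and 269 to 412 CPM with NaKtide. The part of these differences in the members' values was not tested.

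Fyn was the only member that edgeR called in a comparison of the labels with all libraries in the fit. The difference between the labels in the NaKtide effect on control diet was -0.47 on the log2 scale (SE 0.171, edgeR adjusted p = 0.0473), beside 20.6% of genes. Under the hippocampus label Fyn had 111, 97.4, 75.1, 71.9 and 88.9 CPM with NaKtide, against 90.5, 96.2 and 103 CPM as lowest, median and highest of the 6 control libraries. Under the cerebellum label it had 82.9, 88.1, 101, 119.6 and 120.2 CPM with NaKtide, against 72.1, 69.3, 86.0, 74.6 and 102 CPM. Groups overlapped under both labels, and the NaKtide effect on Fyn was called under neither (-0.12, adjusted p = 0.598, and 0.34, adjusted p = 0.130). DESeq2 also called this difference (0.0379, beside 23.6% of genes). It was lost in 8 of the 9 other settings, with adjusted p from 0.0525 to 0.207, and without any one of 13 of the 21 libraries: cerebellum control 1, 2 or 4, cerebellum control NaKtide 4 or 5, hippocampus control 1, 2, 3, 5 or 6, and hippocampus control NaKtide 3, 4 or 5. Without cerebellum control 5, Ptk2 (-1.02, adjusted p = 0.0372) and Ptk2b (-2.17, 0.0418) were called with Fyn, beside 33.0% of genes.

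For NaKtide on western diet, the labels differed in no member by edgeR, beside 8.84% of genes, and 2 members had an unadjusted p under 0.05. Egfr came closest, at -0.83 (SE 0.305, adjusted p = 0.0735), and DESeq2 called it (0.0445), beside 12.7% of genes. By edgeR it was called without cerebellum western 4, cerebellum western NaKtide 3, hippocampus western 5 or hippocampus western NaKtide 2 (0.0223 to 0.0466). The log2 fold changes behind it were -0.78 under the hippocampus label and 0.07 under the cerebellum label. For Hras, which rose under the hippocampus label, the difference between the labels was 0.44 (SE 0.280, adjusted p = 0.291), so its change was not shown to differ between them. The diet effects, without and with NaKtide, differed between the labels in no member and in 0.0% of genes by edgeR; no member had an unadjusted p under 0.05 in either, and DESeq2 called none.

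Libraries of the 2 labels given the same treatment differed in no member by edgeR or DESeq2. On control diet 2.2% of genes were called and 5 members had an unadjusted p under 0.05. That count of 376 genes was 1684 by DESeq2, 1 with the compared groups alone, 5 with hippocampus control 5 and 6 summed, and 3 when the 4 Xist-marked libraries were left out. Ptk2b averaged 494 ± 71.0 CPM under the hippocampus label (n = 6) and 185 ± 201 CPM under the cerebellum label (n = 5). The log2 difference was 1.41, with an SE of 0.606 and an adjusted p of 0.122, and it was 2.32 (0.0124) without cerebellum control 5. Without that library Src (0.48, 0.0390), Fyn (0.37, 0.0277) and Ptk2 (0.84, 0.0264) were also higher under the hippocampus label and Csk lower (-0.62, 0.0331), beside 25.0% of genes. On western diet, where 0.0% of genes were called, 4 members had an unadjusted p under 0.05, Src among them, with 114 ± 13.04 CPM under the hippocampus label and 83.0 ± 20.8 CPM under the cerebellum label (log2 0.46, SE 0.170, adjusted p = 0.150). With NaKtide the labels gave called shares of 0.0% on control diet and 1.75% on western diet, with no member among them, and 1 member on control diet and none on western diet had an unadjusted p under 0.05. The count of 299 genes behind the 1.75% was 672 by DESeq2 and 0 with the compared groups alone.

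The pathway lists also held genes whose NaKtide effect differed between the labels. Of all genes, 8.84% were called in this difference on western diet and 20.6% on control diet. The genes below were picked for the smallest p in their lists, so they are no result about the lists. In the label difference of NaKtide on western diet, Nedd9 (-1.19, adjusted p = 0.0145), an adaptor bound by Ptk2, Cav2 (-1.93, 0.0160), Erbb4 (-1.77, 0.0318), Atp1b1 (-1.11, 0.0321) and Map2k2 (0.79, 0.0282) had the smallest p of their lists. In that of NaKtide on control diet these were Pag1 (-1.58, adjusted p = 0.0114), the membrane anchor of Csk, the vinculin gene Vcl (-2.80, 0.00757) and Cavin3 (1.06, 0.0193). The number of genes called over the table ran from 590 to 2324 across the other settings in the first of these comparisons and from 503 to 4041 in the second, and the single list genes were not followed through those settings.

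Across the 42 libraries the members fell into pairs that moved together or against each other. Of 45 pairs, 16 had a Pearson correlation of log2(CPM + 1) with an adjusted permutation p under 0.05, 8 positive and 8 negative. The permutations mixed libraries of all groups, so this p does not allow for the groups or for libraries that are near alike. How many pairs of other genes correlate as closely is not given here. Csk ran against Ptk2 most closely (Pearson's r = -0.80, Spearman's coefficient = -0.77, adjusted permutation p = 9e-05), with r = -0.65 under the hippocampus label, -0.87 under the cerebellum label, and -0.77 without the 2 libraries farthest from the median of Csk. Csk also ran against Ptk2b (r = -0.67) and against 2 of the kinases it restrains, Fyn (-0.62) and Src (-0.52). Ptk2 and Ptk2b (0.66), Src and Ptk2b (0.66) and Src and Fyn (0.61) varied together. Hras ran against Egfr (Pearson's r = -0.68, Spearman's coefficient = -0.62), Yes1 (-0.65) and Fyn (-0.51), while Yes1 and Egfr ran together (0.67). After the group means were taken away, r was -0.76 for Csk and Ptk2, -0.56 for Egfr and Hras and 0.56 for Yes1 and Egfr, so these relations held within groups as well. The libraries share differences in tissue content and length trend, whose part in these correlations was not tested.

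**Figure D5:**
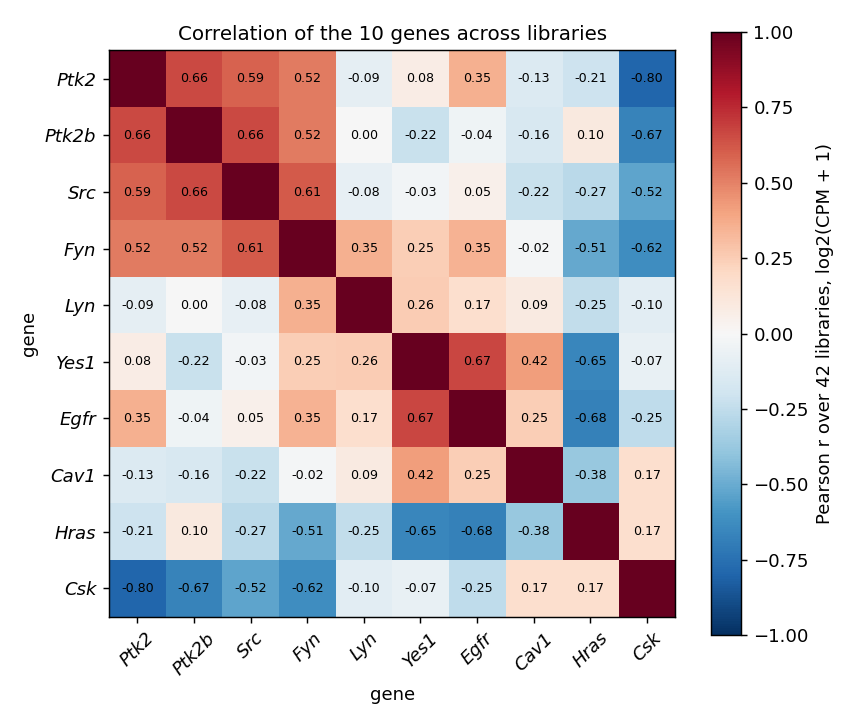
Pearson correlation of log2(CPM + 1) between members over the 42 libraries. Csk is negative with Src, Fyn, Ptk2 and Ptk2b, from -0.52 to -0.80, and Hras is negative with Egfr, Yes1 and Fyn, from -0.51 to -0.68.

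For each member the 3 genes with the most similar pattern were sought among 13948 genes, as a description over the 42 libraries. Ptk2b was closest to Ddn (r = 0.96), which encodes dendrin, Chrm1 (0.96), a muscarinic acetylcholine receptor, and Rgs14 (0.95), a regulator of G protein signalling. Cav1 was closest to Pecam1 (0.73), Tek (0.72) and Cd93 (0.71), and Pecam1 and Tek also stand in the endothelial marker list. Ptk2 was closest to Btbd8 (0.93), Etv5 (0.92) and Dusp6 (0.91), the last also in the list of Ras and MAP kinase genes. Egfr was closest to Ppargc1a (0.85), Gja1 (0.85), a gap junction gene of astrocytes, and Pcdh9 (0.85). Src followed Snph (0.86), Pcdh1 (0.84) and Ripor1 (0.83), Fyn followed Zfp719 (0.82), Yy1 (0.82) and Megf9 (0.81), and Yes1 followed Bmpr1a (0.86), Tnpo1 (0.80) and Dpy19l4 (0.80). Csk followed Frs3 (0.91) and the near-identical pair Hmga1 (0.90) and Hmga1b (0.90), Hras followed Nhp2 (0.91), Fkbp8 (0.89) and Vti1b (0.88), and Lyn had the weakest matches, Btg1 (0.77), Sbk1 (0.74) and Fat1 (0.69).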

How the data were processed

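Per the labels, RNA of flash-frozen brain parts was sequenced after preparation with a stranded mRNA kit, and reads were processed with HISAT2 2.1.0, Trimmomatic 0.38 and DESeq2 1.20.0 on GRCm38, per the submitters' processing notes. The series' design text describes liver and adipose tissue instead, so tissue and group of each of the 42 libraries come from its own label. What counted the reads is not given in the sources used here. As for the tables, the authors deposited raw counts, normalized counts (a signal, each count over the size factor of its library, 0.593 to 1.503, to a relative spread of 2.5e-16) and FPKM, in which each gene's normalized counts were divided by 1 number (2.4e-14). Counts were used for all tests and levels, and FPKM only to compare genes with each other.

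All genes of a label were fitted by edgeR 4.0.16 in R 4.3.3 with its 4 groups as 1 factor (TMM factors, filterByExpr, quasi-likelihood F test), and comparisons between labels with 8 groups together. A gene was called when its p, adjusted by Benjamini-Hochberg over all genes tested, was under 0.05. The SE was taken as the size of the log2 fold change divided by the root of F. Levels are CPM with TMM factors over the 42 libraries, and Xist and Gabra6 CPM of the library total. The number of counts per library limits the members near 5 CPM most.

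Members, lists, markers and alternatives were chosen with earlier results of these data known. Of each pathway list, the 3 called genes of smallest p were named for NaKtide on western diet under the hippocampus label, and the 1 of smallest p elsewhere where the text describes it; some genes of these lists are not reported here. Alternatives were DESeq2 1.42.0, edgeR with DESeq2 size factors, no filter on low counts, a block for the replicate number, the compared groups alone, 2 surrogate variables (sva 3.50.0), leaving out each library, leaving out 4 libraries marked by Xist, summing hippocampus control 5 and 6, taking out each library's trend with exon length and GC content, and the leading component of the other label as a covariate. Likeness used log2(CPM + 1) over genes of at least 1 CPM on average. Correlations had 100000 permutations. The labels do not say which libraries share an animal, so no pairing was used. Same-numbered libraries of different groups correlated with a median of -0.10 under the hippocampus label and -0.06 under the cerebellum label. Between the labels the median was -0.01, from -0.66 to 0.62. Groups of 1 label differ in treatment, and the pairs between labels mix treatments. These values therefore cannot show whether libraries share an animal. Annotated genes that overlap members lie mostly on the opposite strand. Over all libraries, Gm10461 opposite Yes1 held 351 counts against 1520 for Yes1, and Gm11805 opposite Lyn 179 against 1988 for Lyn. The same-strand pseudogene Gm7908 within Ptk2 held 778 counts over all libraries against 21017 for Ptk2.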

Additional observations from a re-analysis of the deposited data

Results flagged for a closer look

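Each member was examined in each of the 8 groups, 80 sets of libraries in all, for a highest or lowest library whose gap to the nearest other library takes up most of the range. Chance flags about 1 in 20 such sets, and 6 stood out, each with a high library. Ptk2b in cerebellum control 5 was 531.8 CPM, against 13.4 to 161 CPM in the other 4 libraries. Csk in hippocampus western 5 was 39.5 CPM, against 25.5 to 28.3 CPM. Ptk2 in hippocampus control NaKtide 5 was 106 CPM, against 53.1 to 68.4 CPM. Lyn was 16.1 CPM in cerebellum western 3, against 4.64 to 7.25 CPM, and 13.8 CPM in cerebellum control NaKtide 5, against 5.12 to 6.22 CPM. These same 2 libraries held the highest summed levels of cerebellar markers, 3938 and 1678 CPM, and of Gabra6, 225 and 133 CPM. Yes1 in cerebellum western 4 was 9.14 CPM, against 4.47 to 5.76 CPM.

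The NaKtide effect on Fyn on control diet differed between the region labels, by -0.47 on the log2 scale in the test of the difference itself (edgeR adjusted p = 0.0473), a call at the threshold that was lost in 8 of the 9 other settings and without any one of 13 of the 21 libraries.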

How the results depend on the processing

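For NaKtide on western diet under the hippocampus label, edgeR as described above gave 4 called members, beside 33.7% of all genes. The length and GC correction gave 2 (21.6% of genes) and the component covariate 1 (7.92%). Leaving out 1 library gave 2 to 7, with 24.4% or 26.8% of genes beside the 2 and 36.7% beside the 7. For the diet without NaKtide, 0 became 1 by DESeq2, 1 with the component covariate, 2 with surrogate variables and 3 without the libraries marked by Xist (0 to 1 leaving out 1 library). The label difference in NaKtide on western diet gave 1 by DESeq2, beside 12.7% of genes (0 to 1 leaving out 1 library). That on control diet was 1, beside 20.6% of genes. It was 0 with DESeq2 size factors, no filter, surrogate variables, the compared groups alone, summed libraries, length and GC correction, or without the libraries marked by Xist. Leaving out 1 library gave 0 to 3 there, with 3 and 33.0% of genes without cerebellum control 5. Leaving out 1 library gave 0 to 4 calls for NaKtide on control diet under the cerebellum label and 0 to 5 for the labels on control diet. The 4 and the 5, both without cerebellum control 5, stood beside 26.5% and 25.0% of genes. The cause of these changes was not tested. The component covariate was run within labels only, and the compared groups alone is the same fit as the first for the interactions.

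With the replicate number as a block, the difference between labels in NaKtide on control diet had 0 called members, beside 2781 called genes. NaKtide on western diet under the hippocampus label had 4 with the block, Yes1 in place of Ptk2b, beside 5221 called genes. No other count of called members changed with the block. Over all genes, the labels on control diet differed in 376 genes without the block and 0 with it; leaving out 1 library gave 1 to 4334 there, and 0 to 843 in place of 299 for the labels on western diet with NaKtide.

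Of the 25 gene and comparison pairs called in any fit, 539 values came from other settings: 453 kept direction and side of the threshold, 42 lost the call, 40 gained it and 4 turned sign. These were Ptk2 for the diet under the hippocampus label (-0.0749 with the length and GC correction) and, for NaKtide on control diet under the cerebellum label, Csk (0.0794 with surrogate variables) and Ptk2 (-0.0617 with surrogate variables, -0.0108 with the covariate). Low counts limit Yes1, Lyn and Egfr most.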
